A study of Mus musculus with 8 samples.

Results

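The genes of the major histocompatibility complex (MHC) and of antigen presentation were followed in mouse kidney cells exposed to TGF-β, with and without chaetocin. Members were chosen by name: every gene of the deposited table whose symbol begins with H2-, which gave 38 genes, and 19 further named genes of the same pathway. Together these are 57 of the 22274 genes in the table. All 57 members are accounted for: 52 had at least 1 read, 40 had enough reads to be tested, and 17 did not pass the filter on low counts. The labels name the line RFB, its tissue kidney and its cell type fibroblast. One group, of 4 libraries, received TGF-β alone, a cytokine that drives matrix production. The other group, also of 4 libraries, received TGF-β and chaetocin, a compound of fungal origin that inhibits SUV39-type histone methyltransferases and is also known to act on redox enzymes. TGF-β is therefore common to both groups, and no library without it was analysed here. Doses, times, the mouse strain and its H2 haplotype were among the facts not given in the sources used here. The series text mentions cells with SUV39H1 knocked down, but no label of these samples does, so grouping followed the treatment label alone. Separate cultures are not mentioned in any label, and p-values reflect only how far these libraries spread, which may be technical.

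Class I molecules display peptides from the inside of a cell to CD8 T cells. Each consists of a polymorphic heavy chain and the light chain β2-microglobulin, and the peptides are cut by the proteasome, carried into the endoplasmic reticulum by the TAP transporter and loaded with the help of tapasin. Class II molecules present peptides from endosomes to CD4 T cells, mainly on professional antigen-presenting cells, and need the invariant chain, cathepsin S and the H2-DM exchange factor. NLRC5 is the main transcriptional coactivator of the class I genes and CIITA that of the class II genes, and both act through a promoter module of S, X and Y boxes bound by RFX, CREB/ATF and NF-Y factors. Interferons raise class I expression through factors such as IRF1, and kidney epithelial cells and fibroblasts carry class I at a low basal level.

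Library depth ranged from 20135312 to 23664084 reads under TGF-β alone. Under chaetocin, replicate 1 had 22591935 reads and the remaining 3 libraries 14421225 to 15084876. Levels are counts scaled to the library size (CPM), and 3 reads equal 0.128 to 0.200 CPM. CPM below are scaled by the TMM method of edgeR, are suited to comparing libraries within a gene, and are given as mean ± SD over 4 libraries. A gene was called when its adjusted p (edgeR quasi-likelihood test, Benjamini-Hochberg over all tested genes) was under 0.05, and "rose" and "fell" are used only of called genes. Chaetocin moved most of the transcriptome: 6129 of 14608 tested genes were called higher and 5662 lower. Under total-count scaling that split was 7180 to 4514, and the median log2 fold change of all genes moved from 0.02 to 0.14. The fibroblast label was met only in part. The epithelial transcripts Cdh1 and Epcam stood at 651 ± 8.10 and 285 ± 7.44 CPM in the TGF-β group, and the mesenchymal genes Vim, Col1a1 and Col1a2 at 1163 ± 30.2, 233 ± 10.6 and 60.2 ± 5.93 CPM, while the fibroblast proteoglycan genes Dcn and Lum stood at 0.129 ± 0.0556 and 0.0123 ± 0.0247 CPM. Macrophage transcripts were present, and their values stand beside the class II results.

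Among the 40 tested members, 33 were called, 24 of them higher with chaetocin and 9 lower. That is 82.5% called, against 80.7% of all tested genes, so the share of called members is near the background. Members called higher made up 60%, against 42.0% of all tested genes, and members called lower 22.5%, against 38.8%. A fitted rise of at least 2-fold was seen for 16 members, or 40%, against 19.7% of all tested genes. For 30 of 40 tested members, or 75%, the CPM of the groups did not overlap, against 74.7% of all tested genes. The median log2 fold change was 0.72 over the tested members and 0.02 over all tested genes. The filter on low counts bears on these figures: 8 of the 40 passed it with fewer than 4 TGF-β libraries over its cutoff, namely Psmb9, H2-Q2, H2-Q5, H2-Q6, H2-Q7, H2-T3, H2-T10 and H2-Bl, and all 8 were called higher. H2-DMb2 passed through its TGF-β libraries and was not called. Of the other 31 members 16 rose and 9 fell, with a median log2 fold change of 0.40. A split by role describes the tested members more closely. Of 14 tested class I heavy chain genes 13 rose and none fell, while of 6 tested class II chain genes 1 rose and 4 fell. However, 7 of these 14 heavy chain genes are among the 8 named above, so the count of 13 supports nothing by itself. Of the remaining heavy chain genes, H2-K1 and H2-D1 rose, as did 4 of 5 nonclassical genes. Since the samples are bulk RNA, fewer cells of a type and less RNA per cell cannot be told apart.

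**Figure D1:**
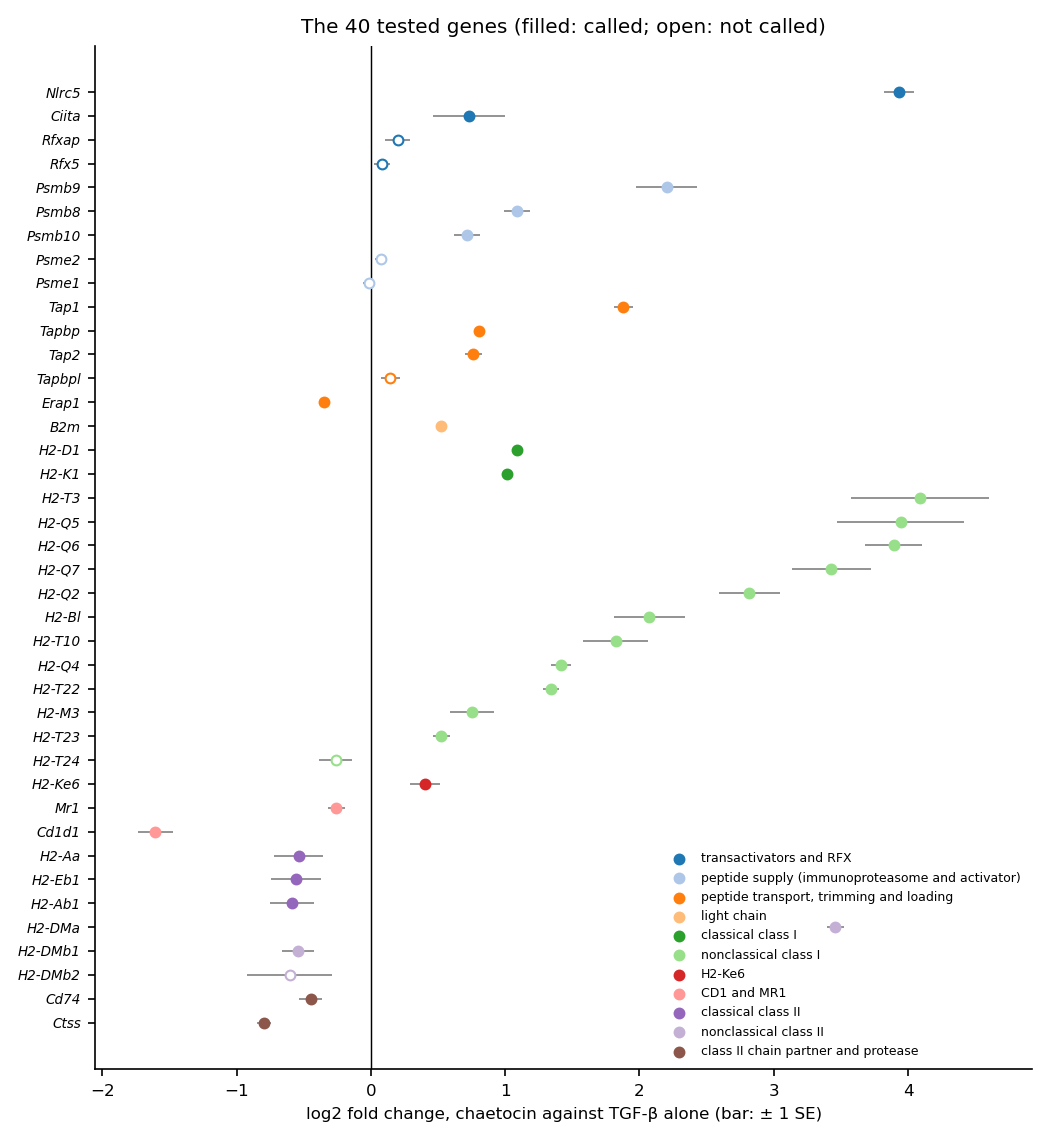
Fitted log2 fold change, TGF-β with chaetocin against TGF-β alone, of the 40 tested antigen presentation genes, ordered by role. Filled points were called in edgeR, open points were not, and bars are ± 1 standard error. Nlrc5, the immunoproteasome subunits, the TAP genes and the class I heavy chains other than H2-T24 lie to the right, and the class II chains other than H2-DMa, with Cd74 and Ctss, lie to the left.

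Promoter letters are shown first, since H2-K1, H2-D1 and H2-Q6 share a block of them, and the counts over all members follow. RefSeq promoter windows (build GRCm38.p6, 250 bases before to 50 bases after the start) were found for 43 of the 57 members, 28 of them tested. The 7 sequences below are the 250 bases before the start, 5′ to 3′ on the gene's strand. Capitals mark exact matches, on either strand, to an interferon response element, to an NF-kB site, to TGACG, the core of the X2 box, and to CCAAT, the core of the Y box. The interferon element was searched in a strict form, GAAA and GAAA separated by any 2 bases, and in a short form, GAANNGAAA. The NF-kB site was searched as GGGGATT followed by CCCC, as in class I promoters, and as GGGA, any base, then TTTCC. H2-K1 lies at chr17:34000348-34000597, minus strand. H2-D1 lies at chr17:35262844-35263093 and H2-Q6 at chr17:35424600-35424849, both plus strand. B2m lies at chr2:122147437-122147686, plus strand, H2-T22 at chr17:36042743-36042992, minus strand, Tap1 at chr17:34187306-34187555, plus strand, and H2-Aa at chr17:34287824-34288073, minus strand.
H2-K1: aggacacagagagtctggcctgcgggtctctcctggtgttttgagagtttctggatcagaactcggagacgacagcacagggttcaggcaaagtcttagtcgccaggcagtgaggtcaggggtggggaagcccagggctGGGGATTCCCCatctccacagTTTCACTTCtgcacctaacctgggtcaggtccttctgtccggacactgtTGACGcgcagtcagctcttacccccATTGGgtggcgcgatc
H2-D1: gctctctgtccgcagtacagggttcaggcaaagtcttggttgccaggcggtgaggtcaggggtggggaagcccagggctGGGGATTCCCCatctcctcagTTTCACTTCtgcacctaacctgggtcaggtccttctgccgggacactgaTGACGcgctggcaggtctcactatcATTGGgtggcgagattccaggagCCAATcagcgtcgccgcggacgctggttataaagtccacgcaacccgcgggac
H2-Q6: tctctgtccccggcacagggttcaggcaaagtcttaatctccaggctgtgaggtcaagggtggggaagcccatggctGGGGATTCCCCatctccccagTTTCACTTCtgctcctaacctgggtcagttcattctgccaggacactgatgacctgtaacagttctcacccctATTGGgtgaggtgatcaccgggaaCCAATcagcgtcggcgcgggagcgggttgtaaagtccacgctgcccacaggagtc
B2m: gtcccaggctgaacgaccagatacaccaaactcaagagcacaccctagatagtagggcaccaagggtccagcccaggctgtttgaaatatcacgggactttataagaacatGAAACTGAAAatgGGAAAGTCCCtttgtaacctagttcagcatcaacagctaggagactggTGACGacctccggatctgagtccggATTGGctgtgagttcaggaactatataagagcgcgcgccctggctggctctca
H2-T22: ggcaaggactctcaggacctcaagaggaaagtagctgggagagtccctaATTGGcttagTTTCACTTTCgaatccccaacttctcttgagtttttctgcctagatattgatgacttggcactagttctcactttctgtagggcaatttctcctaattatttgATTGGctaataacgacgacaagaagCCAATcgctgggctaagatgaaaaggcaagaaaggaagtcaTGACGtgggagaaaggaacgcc
Tap1: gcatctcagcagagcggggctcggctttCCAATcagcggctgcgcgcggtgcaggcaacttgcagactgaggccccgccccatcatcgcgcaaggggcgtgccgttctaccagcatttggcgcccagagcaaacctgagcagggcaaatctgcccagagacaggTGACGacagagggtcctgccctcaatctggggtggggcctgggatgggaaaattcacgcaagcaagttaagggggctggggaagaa
H2-Aa: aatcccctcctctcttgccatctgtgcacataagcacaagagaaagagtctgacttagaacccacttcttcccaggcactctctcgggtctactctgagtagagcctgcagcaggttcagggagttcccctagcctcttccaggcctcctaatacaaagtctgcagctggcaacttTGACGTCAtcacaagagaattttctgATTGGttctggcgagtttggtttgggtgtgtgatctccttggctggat

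The windows of H2-K1, H2-D1 and H2-Q6 share a block in which the class I NF-kB match is followed after 10 bases by a short interferon match, at positions -111 to -82, -171 to -142 and -173 to -144, with the start base counted as 0. Of all 32851 RefSeq promoters, 10 (0.0304%) hold that NF-kB match, and 3 member genes do, whose windows are among the 10. Here and below, all promoters are counted as windows and members as genes, and a gene can have more than 1 window. H2-K1 has another window, not printed, in which the block lies at -125 to -96. B2m holds a strict interferon match at -139 to -130 and, after 3 bases, the other NF-kB form at -126 to -117, which is found in 0.411% of promoters and in no other member. H2-T22 holds a strict interferon match at -191 to -182. In Tap1 and H2-Aa no interferon or NF-kB match was found in this window. The strict interferon form is in 3.44% of all promoters and in 6 of 43 member genes, namely B2m, Ctss, Erap1, H2-T22, H2-T23 and Psme1. The short form, which can overlap the strict one, is in 7.52% of promoters and in 10 member genes, and TTCNNNGAA, a STAT element, is in 8.30% and in 4 member genes.

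TGACG is in 20.8% of all promoters and in 16 of 43 member genes, and CCAAT is in 37.4% and in 33. In H2-K1, H2-D1, B2m and H2-M3 a TGACG is followed after exactly 20 bases by ATTGG, which is CCAAT read on the other strand, a spacing that 0.0944% of all promoters hold. In H2-Aa, a class II gene, 21 bases lie between them, at -74 to -44, a spacing that 0.0700% of promoters hold. H2-Q7 has 19 bases between them. This spacing was searched after the windows had been seen. The 4 genes with 20 bases between them and H2-Q7 rose, and H2-Aa fell. Among the 28 tested members with a window, a short interferon match stood in 6 of 18 that rose and in 2 of the other 10, and a strict match in 3 of 18 and 3 of 10. A match is a description of letters, not a bound site.

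Of the coactivators and their RFX partners, Nlrc5 rose the most. Nlrc5 (chr8:94434356-94527272, plus strand) stood at 1.56, 2.06, 2.07 and 1.32 CPM in the TGF-β libraries 1 to 4 and at 24.2, 27.0, 26.9 and 28.8 CPM with chaetocin. Every chaetocin library was far above every TGF-β library, and the groups did not overlap. Nlrc5 thus had a log2 fold change of 3.93 ± 0.11 (standard error; adjusted p = 2.8e-22), from 30 to 42 reads per TGF-β library and 404 to 566 with chaetocin. On the length-scaled FPKM of the deposited table, the level of Nlrc5 was 0.233 ± 0.0377 without and 4.42 ± 0.496 with chaetocin.

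Ciita, the class II coactivator, was read at 0.873, 1.65, 1.14 and 0.660 CPM in the TGF-β libraries and at 2.26, 1.34, 2.001 and 1.34 CPM with chaetocin. The groups overlapped, since TGF-β replicate 2 lay above chaetocin replicates 2 and 4. Its log2 fold change was 0.73 ± 0.27, with an adjusted p of 0.0146 (edgeR). The call was lost without TGF-β replicate 4, at 0.54 with an adjusted p of 0.0728, and without chaetocin replicate 1, at 0.54 with an adjusted p of 0.101. The DNA-binding subunits Rfx5 and Rfxap, which both coactivators need, were not called. Rfx5 had a log2 fold change of 0.08 ± 0.06 and Rfxap one of 0.20 ± 0.09, with adjusted p of 0.186 and 0.0525. In both the groups overlapped. Rfxap was called higher without chaetocin replicate 1, at 0.25, with DESeq2 size factors, at 0.21, with total-count scaling, at 0.31, with a minimum of 1 CPM, at 0.22, with a replicate block, at 0.20, and in the 3 limma fits on FPKM, at 0.26 to 0.31. Rfx5 was called higher with total-count scaling, at 0.20.

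Genes of peptide supply split by function. The 3 inducible catalytic subunits of the immunoproteasome rose, while the activator subunits Psme1 and Psme2, which form the PA28 cap, were not called. Psmb9, which replaces Psmb6, stood at 0.413, 1.03, 0.840 and 0.880 CPM without chaetocin and at 2.95, 3.96, 3.602 and 4.21 CPM with it. Psmb8, which replaces Psmb5, was at 6.20, 8.30, 5.88 and 6.20 CPM without and 13.5, 14.9, 14.1 and 13.97 CPM with chaetocin. Psmb10, which replaces Psmb7, was at 6.75, 9.85, 8.84 and 8.67 CPM and then at 12.8, 14.8, 13.7 and 14.7 CPM. In each of the 3 genes every chaetocin library exceeded every TGF-β library. Psmb9 passed the filter on low counts only with its chaetocin libraries, so its separation supports nothing by itself. The log2 fold changes were 2.20 ± 0.23 for Psmb9, 1.09 ± 0.10 for Psmb8 and 0.71 ± 0.10 for Psmb10, with adjusted p of 9.8e-10, 8.1e-11 and 1.7e-07 (edgeR). Psme1 was at 48.8 ± 1.51 and 48.5 ± 3.15 CPM, with a log2 fold change of -0.01 ± 0.05 that became 0.10 under total-count scaling. Psme2 was at 39.95 ± 1.29 and 42.1 ± 2.11 CPM, with a log2 fold change of 0.07 ± 0.05. Their adjusted p were 0.802 and 0.148, and both were called higher under total-count scaling. Psme2 was also called higher in the 3 limma fits on FPKM, at 0.21, with adjusted p of 0.00364 to 0.00713. Psme1 was called higher in the limma fits on filtered FPKM, at 0.10 and 0.11, with adjusted p of 0.0453 and 0.0460.

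The standard subunits went in both directions. Psmb5 and Psmb6 fell by 0.18 and 0.31 on the log2 scale, and Psmb7 rose by 0.29. The fall of Psmb5 was not called under total-count scaling, where its adjusted p was 0.108. Set beside its standard form on FPKM, Psmb8 made up 6.23% ± 1.05 of the pair without and 13.4% ± 0.433 with chaetocin. Psmb9 went from 0.718% ± 0.225 to 4.13% ± 0.692 and Psmb10 from 7.89% ± 1.12 to 10.3% ± 0.749. The standard form remained the more abundant transcript of each pair in all 8 libraries, and none of the 3 shares overlapped between groups.

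**Figure D2:**
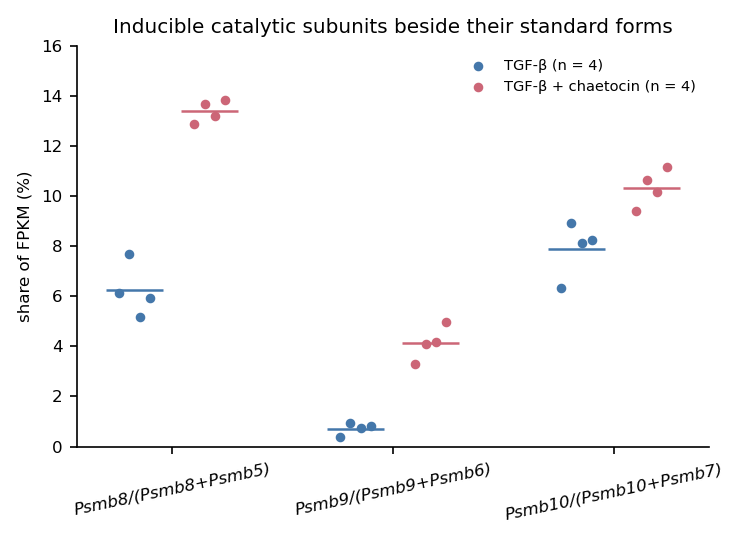
Share, in percent, that each inducible catalytic subunit takes of the summed FPKM of itself and its standard counterpart, by library. Points are libraries and lines are group means. The Psmb9 share is at most 0.925% in the TGF-β libraries and at least 3.27% in the chaetocin libraries, and the highest share of all is 13.8%, of Psmb8.

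Of the 5 genes of transport, trimming and loading 3 rose, 1 fell and 1 was not called. Tap1, a subunit of the peptide transporter (chr17:34187553-34197225, plus strand), was at 15.2, 19.2, 15.6 and 15.4 CPM in the TGF-β libraries and at 52.0, 61.7, 62.2 and 65.2 CPM with chaetocin. Its groups were far apart, and TGF-β replicate 2 was the high library of its group. The log2 fold change was 1.88 ± 0.07, with an adjusted p of 2.2e-19. Tap2, the other subunit, was at 20.8, 24.2, 20.5 and 19.98 CPM and then at 32.9, 36.9, 40.4 and 35.2 CPM, a log2 fold change of 0.76 ± 0.06. Tapbp, which encodes tapasin, the bridge between TAP and the heavy chain, was at 122, 127, 132 and 126 CPM and then at 215, 211, 216 and 242 CPM. Neither gene's groups overlapped, and the log2 fold change of Tapbp was 0.80 ± 0.04.

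Tap1 and Psmb9 are transcribed away from each other from starts that overlap. In GENCODE M21 their exons share 212 bases on opposite strands, and 275 bases of their 300-base RefSeq windows are the same. The use of strand in the counting is unknown here, and reads in the shared bases cannot be told apart. The exons of Tapbp overlap those of Zbtb22 by 149 bases on the same strand and those of Gm19412 by 904 on the opposite strand. Zbtb22 fell, by 0.71 on the log2 scale, while Tapbp rose. Other members with opposite-strand exon overlaps include Rfx5 (1471 bases), H2-T22 (1003), H2-T10 (925), Tap2 (698), Psmb8 (498) and H2-Q4 (496). Ciita, H2-Oa, Nlrc5 and Psme1 have shorter ones. Tapbpl, the tapasin homologue that edits peptides outside the loading complex, was at 16.6 ± 1.31 and 18.3 ± 1.27 CPM and was not called, with a log2 fold change of 0.14 ± 0.07 and an adjusted p of 0.0659 (edgeR). It was called higher, at 0.17, without TGF-β replicate 4 and likewise without chaetocin replicate 2. The same held with DESeq2 size factors or a minimum of 1 CPM, both at 0.16, and with total-count scaling or limma on FPKM, at 0.23 to 0.26.

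Erap1, the aminopeptidase that trims peptides in the endoplasmic reticulum, fell in the counts. It was at 69.1, 69.5, 67.8 and 69.7 CPM without and at 53.7, 54.7, 56.4 and 51.8 CPM with chaetocin, and the groups did not overlap. The log2 fold change was -0.35 ± 0.04, with an adjusted p of 1.5e-09. On the deposited FPKM it was 0.01, with adjusted p of 0.943 to 0.947 (limma), so the direction was lost there. The authors' deposited table gives a log2 ratio of 0.02. The transcript length that the counts and FPKM imply for Erap1 ranged from 3308 to 5565 bases over the libraries, where H2-K1 kept to 1562 to 1573. Exons of Erap1 overlap Cast by 834 bases on the opposite strand, and Cast rose, at 195.0 ± 3.25 and 246.4 ± 7.98 CPM. Its part in the Erap1 result was not tested.

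The light chain and both classical heavy chains rose. B2m (chr2:122147686-122153083, plus strand), the light chain of all class I molecules, was at 252, 275, 259 and 249 CPM in the TGF-β libraries and at 366, 374, 358 and 389 CPM with chaetocin. H2-K1 (chr17:33996017-34000347, minus strand), the K heavy chain, was at 154, 173, 171 and 158 CPM and then at 322, 335, 319 and 346 CPM. H2-D1 (chr17:35262730-35267499, plus strand), the D heavy chain, was at 154, 180, 164 and 157 CPM and then at 331, 358, 346 and 363 CPM. The libraries of each group lay close together and the groups were separate for all 3 genes. The log2 fold changes were 1.01 ± 0.03 for H2-K1, 1.09 ± 0.04 for H2-D1 and 0.52 ± 0.03 for B2m, with adjusted p of 1.3e-20, 1.5e-20 and 3.3e-15 (edgeR).

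On FPKM, which corrects for length, B2m was the most abundant of the 3 in both groups, at 289.1 ± 13.7 and 449.5 ± 16.3. H2-K1 was at 100.4 ± 6.07 and 219.4 ± 8.34 FPKM, and H2-D1 at 77.5 ± 5.64 and 179.1 ± 7.87. The FPKM of all class I heavy chain genes summed to 203.8 to 233.0 without chaetocin and to 467.7 to 519.4 with it. Relative to B2m, this sum was 0.727 to 0.761 without and 1.06 to 1.12 with chaetocin, so heavy chain transcripts passed those of the light chain in every chaetocin library and in no TGF-β library. H2-K1 and H2-D1 together made up 80.1% to 82.5% of the class I heavy chain FPKM in all libraries. Heavy chain genes are near copies of one another in places. Of the 50-base words of their exons, 9.60% in H2-K1 and 12.8% in H2-D1 also occur in another gene, and how the authors counted such reads is unknown here.

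**Figure D3:**
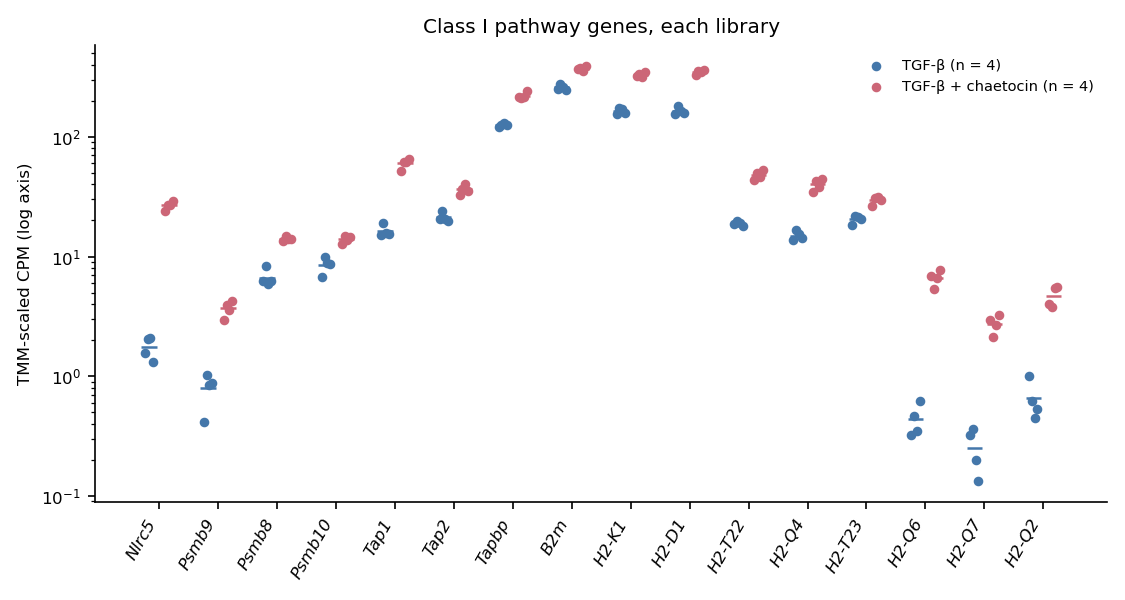
TMM-scaled CPM of 16 class I pathway genes in each library, on a log axis; points are libraries and short lines are group means. In each of these genes the 4 chaetocin libraries lie above the 4 TGF-β libraries, and the gap is widest for Nlrc5, H2-Q6 and H2-Q7. Only genes that rose are plotted. Erap1, which fell, and H2-T24, Tapbpl, Psme1 and Psme2, which were not called, are left out. Psmb9, H2-Q2, H2-Q6 and H2-Q7 passed the filter on low counts only with their chaetocin libraries.

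The nonclassical class I genes, which present restricted sets of ligands to NK cells and unconventional T cells or have other roles, ran in the same direction from lower levels. Of 25 such genes 12 were tested; 11 rose, 9 of them by at least 2-fold, none fell, and the median log2 fold change was 1.95. As 7 of the 12 passed the filter only with their chaetocin libraries, the count and median support nothing by themselves, and of the other 5 genes 4 rose, with a median of 0.75. H2-T22, a ligand of γδ T cells, was at 18.7, 19.8, 19.1 and 17.9 CPM and then at 43.5, 49.8, 46.2 and 52.5 CPM. H2-Q4 was at 13.7, 16.6, 15.3 and 14.2 CPM and then at 34.7, 42.6, 38.0 and 44.8 CPM. H2-T23, which encodes Qa-1, the ligand of the NK receptor NKG2A, was at 18.3, 21.9, 21.2 and 20.5 CPM and then at 26.6, 30.7, 31.1 and 29.9 CPM. In all 3 genes the groups were separate, with log2 fold changes of 1.34 ± 0.06, 1.41 ± 0.07 and 0.52 ± 0.06.

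Among the nonclassical genes, the highest fitted log2 fold changes were those of H2-T3 and of Q region genes, which were almost silent without chaetocin. H2-T3, H2-Q2, H2-Q5, H2-Q6 and H2-Q7 passed the filter on low counts only with their chaetocin libraries. Their ranking and the size of their rises therefore support nothing by themselves. H2-Q6, a Qa-2 gene, was at 0.322, 0.464, 0.346 and 0.616 CPM without and at 6.88, 5.30, 6.60 and 7.65 CPM with chaetocin. Its chaetocin libraries stood together and well above the other group, with a log2 fold change of 3.89 ± 0.21 and an adjusted p of 1.3e-15. H2-Q7, the other Qa-2 gene, went from 0.253 ± 0.107 to 2.74 ± 0.486 CPM (log2 fold change 3.43 ± 0.29), and H2-Q2 from 0.650 ± 0.250 to 4.69 ± 0.952 CPM (2.82 ± 0.23). H2-Q5 and H2-T3, the gene of the thymus leukaemia antigen, were near the detection limit without chaetocin. H2-Q5 had 6 reads in all TGF-β libraries against 82 in the chaetocin libraries, 16.5 times as many after scaling (95% interval 7.26 to 46.2). H2-T3 had 4 reads and 63, or 19.01 times as many (7.07 to 71.9). These intervals cover counting error only.

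H2-T10 rose from 0.647 ± 0.148 to 2.30 ± 0.345 CPM and H2-Bl from 0.487 ± 0.0759 to 2.08 ± 0.470 CPM. GENCODE M21 lists H2-T10, H2-Bl, H2-Q5 and the class II gene H2-Ea as polymorphic pseudogenes, not as protein-coding genes. H2-M3, which presents formylated bacterial peptides, rose from 2.75 ± 0.342 to 4.70 ± 0.965 CPM, with a log2 fold change of 0.75 ± 0.16. H2-T24 was the 1 tested class I gene that was not called, at 7.26, 6.65, 5.73 and 8.23 CPM without and 6.07, 6.45, 5.14 and 5.55 CPM with chaetocin. Its groups overlapped, with a log2 fold change of -0.26 ± 0.12 and an adjusted p of 0.0505 (edgeR). It was called lower without TGF-β replicate 2, at -0.29, without TGF-β replicate 3, at -0.35, and without chaetocin replicate 2, at -0.32, as well as without the filter, at -0.30, and with a replicate block, at -0.26. Sequence sharing is larger in several nonclassical genes than in the classical ones. It covers 34.5% of the 50-base words in H2-T22 and 32.9% in H2-T10, mostly with each other, 32.0% in H2-Q6, 26.4% in H2-Q7, 36.4% in H2-Q5 and 21.8% in H2-Q4, so their separate values are uncertain. H2-T3 shares 0.900%.

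Of the 13 untested class I genes, 2 had reads in every chaetocin library. H2-Q1 had 0 reads in all TGF-β libraries and 15, 10, 7 and 13 with chaetocin, at least 18.1-fold higher when 3 counts over the TGF-β group are taken as the floor. H2-Q10 had 1 read without and 35 with chaetocin, 42.2 times as many after scaling (95% interval 7.10 to 1715). H2-M2, H2-M10.1, H2-M10.3, H2-M10.4 and H2-M10.5 had no read in any library. H2-M1, H2-M5, H2-M9, H2-M10.2, H2-M10.6 and H2-M11 had at most 5 reads in either group.

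Both class I-like presenters outside the H2 family fell. Cd1d1, which presents lipids to NKT cells, was at 11.8, 10.4, 10.7 and 10.3 CPM without and at 2.91, 3.71, 4.87 and 2.93 CPM with chaetocin. The groups were separate, with a log2 fold change of -1.61 ± 0.13 and an adjusted p of 6.6e-12 (edgeR), the only fall of at least 2-fold among the tested members. Cd1d1 shares 19.1% of its 50-base words with its copy Cd1d2. Mr1, which presents microbial metabolites to MAIT cells, was at 22.6, 21.2, 24.2 and 22.9 CPM and then at 19.5, 20.3, 18.9 and 17.4 CPM. Its groups were close but separate, and its log2 fold change was -0.26 ± 0.06. The call of Mr1 was lost in the 3 limma fits on FPKM, with adjusted p of 0.0622 to 0.0766. H2-Ke6 carries an H2 symbol but encodes a steroid dehydrogenase. It rose from 5.34 ± 0.483 to 7.02 ± 0.239 CPM, and 70.5% of its 50-base words are shared with Gm20427, an annotated gene that overlaps it on the same strand.

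Class II transcripts were scarce, and 4 of the 6 tested chain genes fell. H2-Ab1, the A β chain, was at 4.41, 6.34, 4.54 and 4.49 CPM without and at 3.12, 2.94, 4.54 and 2.61 CPM with chaetocin. The groups met at 4.54 CPM, where chaetocin replicate 3 overlapped the TGF-β libraries. H2-Aa, the A α chain, was at 3.22, 3.20, 4.001 and 2.90 CPM and then at 2.48, 2.30, 2.80 and 1.53 CPM. H2-Eb1, the E β chain, was at 3.54, 2.32, 2.96 and 3.12 CPM and then at 2.35, 2.17, 1.53 and 1.98 CPM. The groups were separate by a narrow margin in H2-Aa and overlapped in H2-Eb1. The log2 fold changes were -0.59 ± 0.16 for H2-Ab1, -0.54 ± 0.18 for H2-Aa and -0.56 ± 0.18 for H2-Eb1, with adjusted p of 0.00211, 0.00892 and 0.00772 (edgeR). On log2(FPKM + 1) without a filter, H2-Aa had an adjusted p of 0.0553 (limma) and H2-Eb1 was not called either. On FPKM the 5 classical class II genes summed to 7.98 to 9.18 without and 5.02 to 7.84 with chaetocin.

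The partners of the class II chains also fell. Cd74, the invariant chain, was at 20.1, 19.3, 17.98 and 16.6 CPM without and 12.8, 14.5, 15.7 and 11.4 CPM with chaetocin. Ctss, the cathepsin that degrades the invariant chain, was at 62.5, 64.8, 64.9 and 64.6 CPM and then at 33.0, 36.6, 42.4 and 37.2 CPM. H2-DMb1, a β chain of the peptide exchange factor, was at 6.61, 6.24, 7.26 and 6.73 CPM and then at 4.66, 5.11, 4.47 and 4.15 CPM. In these 3 genes no chaetocin library reached a TGF-β library, and the log2 fold changes were -0.45 ± 0.08, -0.79 ± 0.05 and -0.54 ± 0.12. H2-DMb2, which shares 24.8% of its 50-base words with other genes, was at 0.895 ± 0.225 and 0.596 ± 0.243 CPM and was not called, with an adjusted p of 0.0788. Without chaetocin replicate 2 its log2 fold change was -0.90 and its adjusted p 0.0194. Of the untested class II genes, H2-Ob had 0 reads without and 7 with chaetocin, H2-Oa 6 and 3, H2-Ea 5 and 3, and H2-Eb2 0 and 2.

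Transcripts of macrophages and other leukocytes were present and went in both directions. Of 28 leukocyte and antigen-presenting cell markers, 18 were tested, 7 rose and 11 fell, with a median log2 fold change of -0.75. Over all tested genes 42.0% rose and 38.8% fell. DESeq2 called 12 of the list higher, and edgeR without the filter 13. Their summed level was 423.8 to 467.0 CPM without and 265.9 to 315.7 CPM with chaetocin. The complement gene C1qc fell from 57.0 ± 3.93 to 16.8 ± 2.65 CPM, the receptor gene Cx3cr1 from 21.6 ± 1.19 to 5.14 ± 0.457 CPM and Csf1r from 50.1 ± 3.29 to 32.4 ± 2.62 CPM. Cd68 rose from 17.7 ± 2.85 to 34.2 ± 2.37 CPM and Cd14 from 12.2 ± 1.23 to 22.3 ± 1.196 CPM. The dendritic cell genes went in both directions. Flt3 and Xcr1, which were under 0.2 CPM in every TGF-β library, rose, Flt3 from 6 reads over the TGF-β libraries to 185. Flt3 and Xcr1 passed the filter on low counts only with their chaetocin libraries, so the count of 7 supports nothing by itself. Zbtb46 rose from 9.10 ± 0.450 to 12.7 ± 1.35 CPM, and Itgax fell from 27.4 ± 1.94 to 14.9 ± 1.43 CPM. The integrin gene Itgam rose from 11.8 ± 1.09 to 17.3 ± 0.751 CPM and the pan-leukocyte gene Ptprc from 20.5 ± 0.643 to 25.1 ± 2.93 CPM. Of untested markers, Clec9a had 0 reads without and 35 with chaetocin, and the B cell genes Cd79a and Cd79b had 2 and 5 reads without and 51 and 37 with it. Cd8a was at 0 everywhere, and Clec9a, Cd209a, Batf3, Cd79b, Ms4a1, Cd3e and Nkg7 stayed under 1 CPM in every library. The part of these cells in the class II result was not tested.

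H2-DMa departed from the other class II genes. H2-DMa, the α chain of the exchange factor (chr17:34119541-34139101, plus strand), was at 6.43, 6.19, 5.83 and 7.57 CPM in the TGF-β libraries and at 73.0, 68.5, 70.6 and 75.1 CPM with chaetocin. Its groups were far apart, with a log2 fold change of 3.46 ± 0.06 and an adjusted p of 1.7e-26, while its partner chain H2-DMb1 fell. Exons of H2-DMa overlap those of Brd2, a bromodomain gene on the opposite strand, by 360 bases. Brd2 was at 318.2 ± 3.72 CPM without and 1297 ± 58.1 CPM with chaetocin, a log2 fold change of 2.03 ± 0.03. The length that counts and FPKM imply for H2-DMa was 1151 to 1213 bases in the TGF-β libraries and 1483 to 1549 bases with chaetocin, with no overlap, whereas that of Brd2 was 3033 to 3093 and 2930 to 2963 bases. With the use of strand unknown, reads of both genes in the shared bases cannot be told apart.

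**Figure D4:**
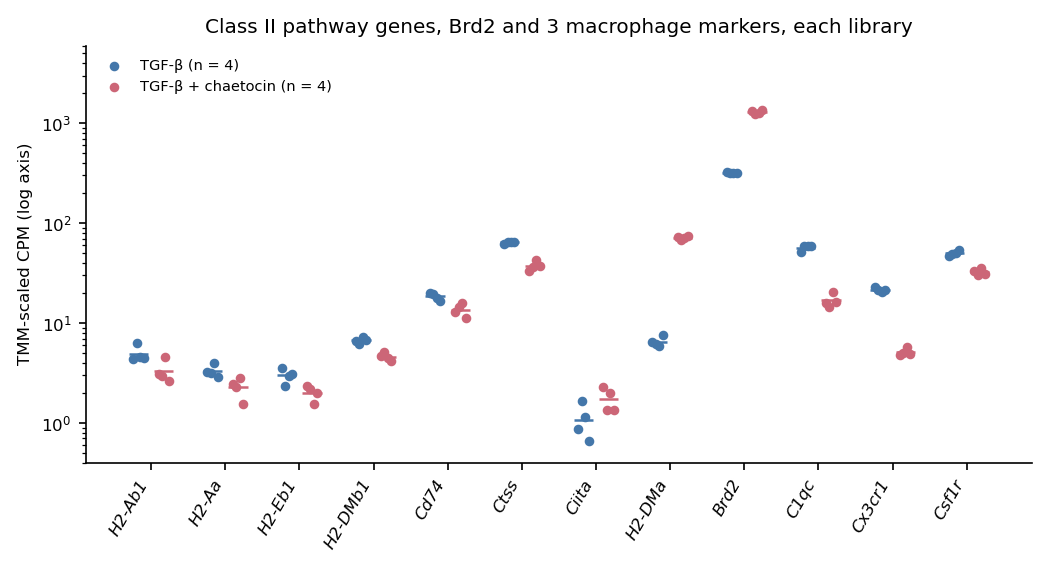
TMM-scaled CPM of class II pathway genes, of Brd2, whose exons overlap H2-DMa, and of the macrophage markers C1qc, Cx3cr1 and Csf1r in each library, on a log axis; points are libraries and short lines are group means. By group means, the class II chains other than H2-DMa, with Cd74, Ctss and these 3 markers, are lower with chaetocin, and H2-DMa and Brd2 are higher; Cd68, Cd14 and Itgam, which rose, are not plotted.

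Most members lie in 1 stretch of the genome. The MHC region from H2-K1 to the last H2-M gene (GRCm38, chr17:33996017-37483552) holds 42 members, of which 25 were tested, 19 rose and 4 fell, with a median log2 fold change of 1.09. The region's other 86 tested genes gave 47 that rose and 26 that fell, with a median of 0.21. The 15 tested members elsewhere in the genome gave 5 and 5, with a median of 0.08. Over all tested genes 42.0% rose and 38.8% fell, with a median of 0.02. Direction changed within short distances. In the class II stretch H2-Ab1, H2-Aa, H2-Eb1 and H2-DMb1 fell, while Psmb9, Tap1, Psmb8 and Tap2, which lie among them, rose. All 8 members that passed the filter only with their chaetocin libraries lie in this region, and all were called higher. Its count and median therefore support nothing by themselves. The region was drawn after the values had been seen, and these counts are a description.

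**Figure D5:**
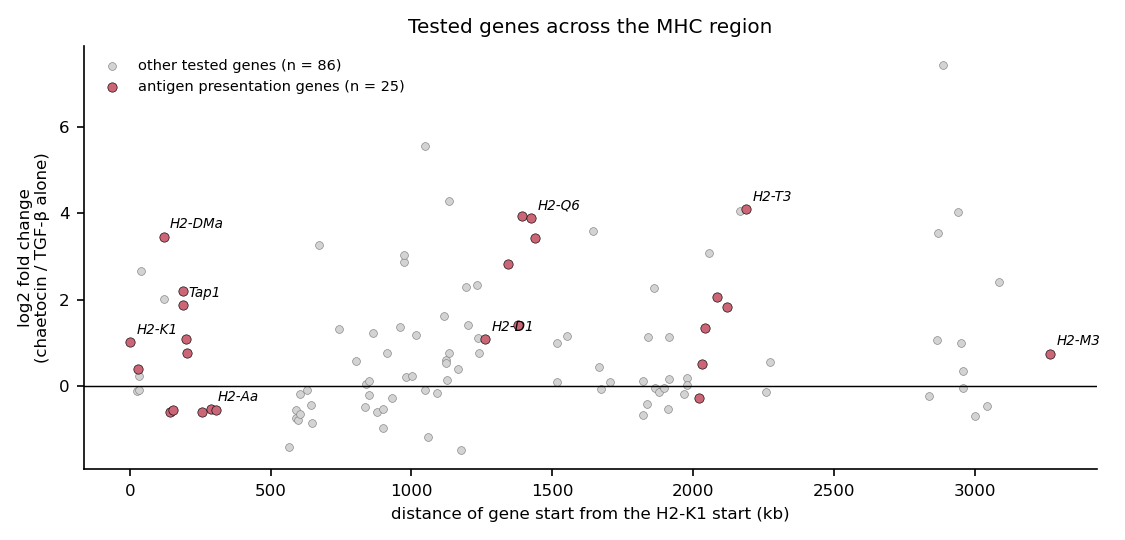
Log2 fold change of the 111 tested genes of the MHC region, against the distance of each gene's start from the H2-K1 start in kb. Red points are the 25 antigen presentation genes and grey points the other 86. H2-Aa and the other class II chains that fell lie below 0 at the left, on both sides of Tap1 and its neighbours above 0.

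Other genes of the pathway did not share 1 direction, and neither did all tested genes, of which 42.0% rose and 38.8% fell. These shares are the background for the counts in all lists below. Of 16 tested interferon pathway and class I promoter factors 6 rose and 8 fell, with a median log2 fold change of -0.16. Irf1, which binds interferon elements of class I promoters, was at 30.1, 32.2, 32.2 and 31.4 CPM without and 56.3, 55.5, 55.9 and 60.1 CPM with chaetocin. Its groups were separate, with a log2 fold change of 0.85 ± 0.04. Stat2 rose by 2.59, while the interferon-γ receptor subunit Ifngr2 and the NF-kB subunit Nfkb1 fell by 0.71 and 0.61 on the log2 scale. Among 9 partners of NLRC5, CIITA and RFX 5 rose and 3 fell. The NF-Y subunit Nfyc and Atf1 rose by 0.61 and 0.58, and Nfya and Ep300 fell by 0.24 and 0.21. In the limma fits on FPKM neither was called, at -0.07 to -0.08 for Nfya and -0.04 for Ep300, with adjusted p of 0.177 to 0.198 and 0.334 to 0.355.

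The general chaperones of peptide loading ran against the dedicated ones. Of 13 measured genes of loading and folding in the endoplasmic reticulum 11 fell and 2 rose, with a median log2 fold change of -0.29, and under total-count scaling 7 fell. Canx, which encodes calnexin, and Sel1l, of the degradation machinery, fell by 0.60 and 0.54 on the log2 scale, and Lnpep, an endosomal aminopeptidase, and Bcap31 rose by 0.67 and 0.16. Of 17 standard proteasome genes 10 rose and 6 fell, and under total-count scaling 3 fell. Psmb3 and Psmb4 rose by 1.11 and 0.29, and Psme4 and Psmb6 fell by 0.47 and 0.31. Of 15 genes of endosomal processing 5 rose and 6 fell. Ifi30, the lysosomal thiol reductase, rose from 67.6 ± 2.76 to 305.9 ± 8.66 CPM and Cd63 by 0.14, while the proteases Lgmn and Ctsl fell by 0.89 and 0.45.

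Of 14 tested costimulation and checkpoint ligands 6 rose and 3 fell. Cd274, which encodes PD-L1, rose from 4.99 ± 0.887 to 37.0 ± 3.06 CPM and Lgals9 from 11.2 ± 0.951 to 70.3 ± 4.45 CPM, while Cd40 and Cd276 fell by 1.52 and 0.47 on the log2 scale. Of 4 tested ligands of NK receptors Ulbp1 and Raet1d rose by 0.83 and 1.03, and Raet1e and H60b fell by 1.25 and 0.98. The summed level of the fibroblast markers was 1441 to 1528 CPM without and 515.1 to 655.6 CPM with chaetocin, that of the epithelial markers 5803 to 5955 and 8504 to 8901 CPM, and that of the endothelial markers 55.6 to 62.9 and 103.5 to 114.4 CPM. Each of these lists went in both directions. Of 11 tested fibroblast markers 2 rose, Dcn and Fap, and 5 fell, and most of the sum was Vim, which fell to 442 ± 50.5 CPM. With a minimum of 1 CPM, or with limma on filtered FPKM, 1 rose. Dcn passed the filter of the main fit only with its chaetocin libraries. Of 10 tested epithelial markers 5 rose and 4 fell, with a median log2 fold change of 0.07, and without TGF-β replicate 4 only 3 were called higher. Their sum was carried by the keratin genes Krt8, from 1582 ± 29.6 to 3615 ± 46.6 CPM, and Krt18, from 812 ± 18.4 to 1783 ± 43.4 CPM. Of 8 endothelial markers 5 rose and 3 fell. The part of these cells in the antigen presentation results was not tested.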

How the data were processed

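RNA was sequenced from 8 libraries, 4 per treatment. Per the labels' protocols, RNA came from an RNeasy column kit and libraries from a SMARTER mRNA kit. The submitters' processing notes name the builds GRCm38 and mm10. Aligner, counter, strand setting and annotation: not given in the sources used here. The authors deposited raw read counts and FPKM per gene and sample, per the file headers, with their own log2 ratio and p-value with FDR for this comparison. The authors' columns are quoted only where named, and 0 value columns of other samples were present.

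Counts were tested in edgeR 4.0.16 (R 4.3.3), with its two-sided quasi-likelihood F test, after filterByExpr and TMM scaling, over 14608 genes, with Benjamini-Hochberg adjustment over all of them. The standard error is the size of the log2 fold change divided by the square root of F. The script was tested on simulated data. Replicates differed by more than sampling noise (chi-square per gene 2.04 to 2.61 on average), and the common biological coefficient of variation was 2.94%. Same-numbered samples did not deviate together. With few libraries per group this cannot exclude a pairing, and no label gives a pairing. Gene positions, exon overlaps and shared 50-base words come from GENCODE M21. Promoter windows come from RefSeq and were searched for exact letters. Ratios of read sums have exact 95% intervals, and a group at 0 was given a floor of 3 counts over the group.

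The members, the lists and the tests were chosen with earlier results of these data known. Every member is named, and from each further list the 2 called genes with the smallest p in each direction, with Irf1, Psmb5, Psmb6 and Psmb7 in every case. Some genes that this rule takes are not reported here. From marker lists, the summed level and the markers at or near 0 are given. Dcn, Lum, Fap, Vim, Col1a1, Col1a2, Cdh1, Epcam, Krt8, Krt18, Itgam, Ptprc, Clec9a, Cd79a, Cd79b, Cd68, Cd14, Flt3, Xcr1, Csf1r, Brd2, Cast and Zbtb22 were named after their values were seen. So were Itgax, Zbtb46 and Tnfsf4. The fit was repeated with each library left out, with a replicate block, with total-count scaling or the size factors of DESeq2, without the filter or with a minimum of 1 CPM in 4 libraries, and with DESeq2 1.42.0 or limma-voom (limma 3.58.1) as the tool. It was also repeated with limma on log2(FPKM + 1), where FPKM exceeded 1 in 4 or more samples, with 0.1 as the pseudocount, and without that filter.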

Additional observations from a re-analysis of the deposited data

Results flagged for a closer look

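In 9 of 172 groups of 4 libraries examined, 1 library stood apart from the other 3 by more than Dixon's limit, and chance gives about 1 in 20. Among the antigen presentation genes, TGF-β replicate 2 was the high library for Tap1, at 19.2 CPM where the others were at 15.2 to 15.6. It was also high for Psmb8, at 8.30 CPM against 5.88 to 6.20, and for H2-Ab1, at 6.34 CPM against 4.41 to 4.54. The calls of Tap1, Psmb8 and H2-Ab1 held without it.

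Ctss was low in TGF-β replicate 1, at 62.5 CPM against 64.6 to 64.9. H2-DMb2 was high in chaetocin replicate 2, at 0.959 CPM against 0.446 to 0.513, and is called without that library. Outside the members, TGF-β replicate 1 was low for C1qc, at 51.2 CPM against 58.4 to 59.7, and for Col1a1, at 217.3 CPM against 237.0 to 240.3, and it held the single read of Xcr1 in its group, at 0.0459 CPM. Psmb7 was low in TGF-β replicate 4, at 85.5 CPM against 88.7 to 89.0.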

How the results depend on the processing

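Of 40 tested members, 28 kept the same call in every one of the 18 alternatives that tested them, and 12 did not. Not every alternative tested all 40. With a minimum of 1 CPM 37 were tested, and in each limma fit on filtered FPKM 36. The count of members called higher was 24 to 30 and of those called lower 5 to 11. It was 5 lower for limma on log2(FPKM + 1) without a filter. Erap1 turned from -0.35 to 0.012 under limma on FPKM, with either pseudocount and without the filter, and no other tested member turned as a called gene. H2-Eb1 and Mr1 lost their calls under limma on FPKM, and Ciita without TGF-β replicate 4 or chaetocin replicate 1. Total-count scaling called 29 members higher and 9 lower, adding Rfx5, Rfxap, Tapbpl, Psme1 and Psme2. With a replicate block, 25 members were called higher and 10 lower, with Rfxap (adjusted p = 0.0475) and H2-T24 (adjusted p = 0.0441) added. Leaving out 1 library at a time gave 24 to 26 higher and 9 to 11 lower. The cause of these changes was not tested. In the further lists, limma on FPKM called 0 of the partners of NLRC5, CIITA and RFX lower, where edgeR called 3, and leukocyte markers called higher were 12 with DESeq2 and 13 without a filter, where edgeR called 7. Depth limits the members with few reads, such as H2-Q5, H2-T3, H2-Q1 and H2-Q10.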
